A study of Mus musculus with 6 samples.

Results

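Antibody genes were examined in the lungs of 6 mice. They were 7 immunoglobulin heavy chain constant genes, Ighm, Ighd, Igha, Ighg1, Ighg2b, Ighg2c and Ighg3, and the gene of the joining chain, Jchain. Heavy chain totals and shares below cover these 7 constant genes only. These 8 genes were chosen by their symbols, out of 32285 genes in the count tables, and all 8 were found in the 6 libraries. All mice were male, 12 weeks old and of the genotype hCTLA4, in which human sequence replaces part of the mouse checkpoint receptor gene, so that the human-directed antibody ipilimumab can bind. All mice had lung injury from bleomycin, given through the oropharynx in 2 doses of 1.25 U/kg set 2 weeks apart. From day 21 after the second dose, 3 mice received ipilimumab and 3 received an IgG1 control antibody, each at 5 mg/kg for 4.5 weeks. Cells of the right lung of each mouse then entered a single-cell library of its own, in which each captured RNA molecule is counted once by a unique molecular identifier (UMI). No mouse without bleomycin was analysed here, so every value below belongs to injured lung. The control antibody IgG1 is an injected protein and is not the product of the mouse gene Ighg1. Mice are named here by treatment and replicate number, as IgG1 1 to 3 and ipilimumab 1 to 3.

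A naive B cell transcribes Ighm and Ighd together, from the same rearranged variable segment, and displays IgM and IgD on its surface. After activation, class switch recombination deletes the constant genes in between and joins the variable segment to a downstream one. This gives an isotype such as IgG3, IgG1, IgG2b, IgG2c or IgA. A plasma cell secretes 1 such isotype in large amounts, and the J chain links IgM or IgA units into polymers that the polymeric immunoglobulin receptor carries across mucosal epithelium. In the lung, IgA and IgM made by local plasma cells line the airways, whereas IgG acts mainly in tissue and blood. Heavy chain constants, IgM above all, can also be transcribed as sterile RNA that lacks a variable segment, which codes for no antibody.

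On the mouse genome build GRCm38 (GENCODE M21 annotation) all 7 constant genes lie on the reverse strand of chromosome 12. In the order of transcription they were Ighm (113418558 to 113422730), Ighd (113406604 to 113416324), Ighg3 (113356224 to 113361232), Ighg1 (113325240 to 113330523), Ighg2b (113302965 to 113307933), Ighg2c (113285325 to 113288932) and Igha (113254830 to 113260236). Jchain lies apart from them on chromosome 5 (88519809 to 88527891, reverse strand). The 4 IgG genes are close relatives, and their hinge exons, which code for the flexible stretch between the antigen-binding arms and the stem, show how the subclasses differ. Each hinge below is exon 2 of its gene, read 5′ to 3′ along the gene, and capitals mark the in-frame cysteine codons, whose cysteines can bond 2 heavy chains together.
Ighg3, chr12:113360529-113360576: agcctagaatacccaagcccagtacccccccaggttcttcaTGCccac
Ighg1, chr12:113329844-113329882: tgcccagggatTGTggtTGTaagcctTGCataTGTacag
Ighg2b, chr12:113307261-113307326: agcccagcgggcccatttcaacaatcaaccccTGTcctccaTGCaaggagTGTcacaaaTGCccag
Ighg2c, chr12:113288263-113288325: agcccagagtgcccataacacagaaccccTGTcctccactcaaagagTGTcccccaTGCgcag
The hinge of Ighg3 held 1 cysteine codon in 48 bases, that of Ighg1 held 4 in 39, that of Ighg2b held 4 in 66 and that of Ighg2c held 3 in 63. Reads of the IgG genes can be shared between them, and this may bear on low IgG values below. Of all 50-base stretches in the transcripts of a gene, 5.49% for Ighg2c, 4.15% for Ighg2b, 1.58% for Ighg3 and 0.393% for Ighg1 also occurred in another of the 8 genes, and none for Ighm, Ighd, Igha and Jchain.

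The libraries held between 37666042 and 48612412 UMIs each. After filters, 4325, 4218 and 3252 cells of the IgG1 mice and 4245, 3989 and 4051 cells of the ipilimumab mice were used, and any 2 libraries shared at most 8 cell barcodes. Ipilimumab 1 stood apart, with 22056 barcodes of at least 100 UMIs against 4834 to 6230 in the other libraries, and with 78.5% of its UMIs in called cells against 92.3% to 93.0%. Cells were clustered with every immunoglobulin gene left out, so that the 7 constant genes and Jchain had no part in naming B-like cells, which carried the B cell genes Cd79a, Ms4a1 and Pax5. Plasma-like cells were instead picked one by one as cells with at least 1 UMI each of Jchain and of Mzb1, a chaperone of the secretory pathway. Since Jchain chose them, its level there is described and not tested. All remaining cells were summed as other cells, and barcodes of under 100 UMIs, which hold RNA set free from cells, as ambient RNA. The ambient RNA made up 6.20% to 6.54% of the UMIs of a library. Levels are in CPM, the UMIs of a gene per 1000000 UMIs of the population. As a UMI marks 1 captured 3′ end, levels were not divided by gene length, and shares of isotypes are shares of captured molecules.

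With the mice summed, most of the 8 genes lay mainly in B-like or in plasma-like cells. Summed over the 6 mice, 77.4% of the Ighd UMIs and 61.1% of the Ighm UMIs of the libraries lay in B-like cells that were not plasma-like. In contrast, 61.0% of Igha, 68.7% of Ighg1, 74.4% of Ighg2b and 86.3% of Ighg2c lay in the 109 plasma-like cells among 24080 cells. So did 77.1% of Jchain, but Jchain helped to choose these cells, and its share follows in part from that choice. The IgG shares rested on few cells, described below. In single mice they ran from 0% to 76.5% for Ighg1, to 89.0% for Ighg2b and to 93.8% for Ighg2c. For Igha the range was 28.3% to 79.5%. B-like cells held 1.69% to 92.9% of the Ighg1 of a mouse. Ighm was found in both, with 15.3% of its UMIs in plasma-like cells. These few cells held 0.53% of Ighd. Its level there was 42.9 to 169 CPM, against 1.52 to 6.99 CPM in other cells and 511 to 620 CPM in B-like cells. Ighg3 had few UMIs in all, between 7 and 409 in a library, and 57.2% of them lay in barcodes removed as doublets, mostly in IgG1 1, where doublets held 337 of 409. Doublets also held 21.7% of the Igha UMIs and 14.6% of the Jchain UMIs over the 6 mice, and as much as 50.1% of Igha in ipilimumab 3. Ambient RNA held 12.1% of Igha, 6.02% of Jchain, 8.07% of Ighm and 9.18% of Ighd.

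**Figure D1:**
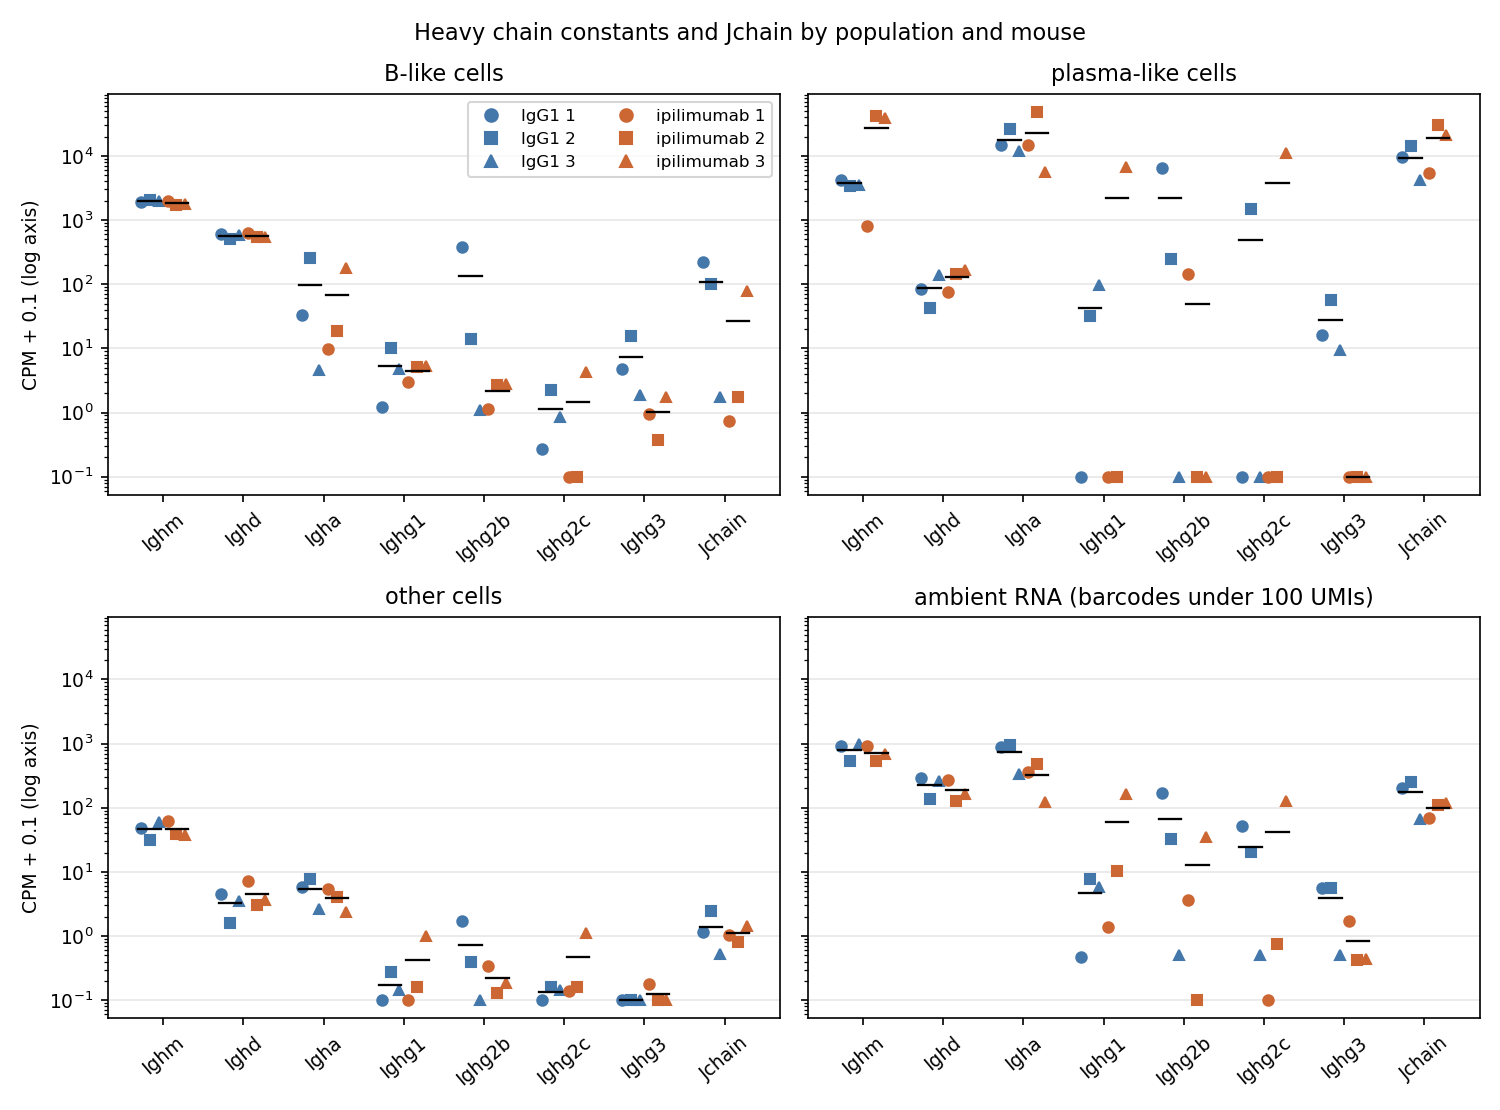
Level of each of the 8 genes in B-like cells, plasma-like cells, other cells and ambient RNA, as CPM plus 0.1 on a log axis, with 1 point per mouse and black bars at the group means. Ighm and Ighd in B-like cells sit within narrow bands, whereas Igha, the IgG genes and Jchain spread widely between mice of the same treatment.

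In B-like cells the IgM and IgD genes were at nearly the same level in all mice and did not differ detectably between treatments. Ighm, the constant of IgM, stood at 1909, 2049 and 1984 CPM in the IgG1 mice and at 1975, 1699.7 and 1788 CPM in the ipilimumab mice. The groups overlapped, since ipilimumab 1 lay among the IgG1 mice, and the log2 fold change was −0.12 (SE 0.0790, adjusted p = 0.751, edgeR). Ighd, the constant of IgD, stood at 609, 511 and 579 CPM in the IgG1 mice and at 619.7, 538 and 553 CPM in the ipilimumab mice. Its groups overlapped throughout, with a log2 fold change of 0.01 (SE 0.0821, adjusted p = 0.977). Across all genes, 0% of the 11641 tested in B-like cells passed an adjusted p of 0.05 together with a log2 fold change beyond 0.3, and 0 of the 7 members tested did so, Ighg2c being too low to test. An unadjusted p under 0.05 was found for 822 genes, and DESeq2 called 7.

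Switched isotypes and Jchain in B-like cells followed single cells. Igha, the constant of IgA, was at 32.4, 258 and 4.49 CPM in the IgG1 mice and at 9.81, 18.7 and 177 CPM in the ipilimumab mice, high in IgG1 2 and ipilimumab 3. Jchain was at 222, 99.2 and 1.64 CPM in the IgG1 mice and at 0.633, 1.63 and 78.7 CPM in the ipilimumab mice, with the same mice high and IgG1 1 as well. Ighg2b was at 381 CPM in IgG1 1, at 14.0 and 0.985 CPM in the other IgG1 mice and between 1.05 and 2.64 CPM in the ipilimumab mice. That value came from 1 cell of a B-like cluster in IgG1 1, which held 4452 of the 4562 Ighg2b UMIs of all cells of that mouse (97.6%). The same cell held 2543 Jchain UMIs, the most of any cell, together with the variable genes Igkv12-46 (150 of 215 light chain variable UMIs) and Ighv2-9-1 (137 of 137 heavy chain variable UMIs). The log2 fold changes were −0.49 for Igha (SE 1.06, adjusted p = 0.928), −2.01 for Jchain (SE 1.20, adjusted p = 0.728) and −6.03 for Ighg2b (SE 1.55, adjusted p = 0.618). None passed the test. The sizes moved with single mice and with the choice of cells: Igha became 1.85 without IgG1 2 and −2.78 without ipilimumab 3, and Jchain became −0.88 without IgG1 1, −6.63 without ipilimumab 3 and −1.27 with cells called by UMI total alone. Ighg2b became −1.80 without IgG1 1, −1.42 with cells called by UMI total alone and −0.88 with doublets kept. With no filter on low counts, the fit called these 3 genes and Ighg3 lower under ipilimumab, at nearly the same fold changes, and the SE of Jchain fell from 1.20 to 0.112.

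The low IgG genes of B-like cells are the less certain ones, as they rest on few UMIs. Their reads can also be shared, and the part of sharing was not tested. Ighg3, the IgG subclass most tied to responses without T cell help in mice, was at 4.65, 15.5 and 1.75 CPM in the IgG1 mice and at 0.843, 0.271 and 1.63 CPM in the ipilimumab mice. Its groups did not overlap, but its log2 fold change of −2.89 (SE 0.750) had an adjusted p of 0.618, so that it was not called. It became −1.81 without IgG1 2 and −1.23 with cells called by UMI total alone. In IgG1 2, 47 of its 110 cell UMIs lay in 1 plasma-like cell of a B-like cluster that had 1 Jchain UMI. Ighg1 ranged from 1.098 to 10.03 CPM and Ighg2c from 0 to 4.15 CPM, with overlapping groups. With the 50 plasma-like cells of B-like clusters left out, an alternative added after the values were seen, the switched isotypes together made up 0.696%, 2.02% and 0.388% of the heavy chain UMIs of B-like cells in the IgG1 mice and 0.495%, 0.828% and 0.857% in the ipilimumab mice. With those cells included the same shares were 14.3%, 10.5% and 0.489% against 0.558%, 1.17% and 7.54%. The means were 8.41% ± 7.12 and 3.09% ± 3.87 (SD, n = 3 each, exact two-sided permutation p = 0.4). The B-like share of cells itself was 46.8%, 28.5% and 39.1% in the IgG1 mice and 35.1%, 31.4% and 32.7% in the ipilimumab mice (exact permutation p = 0.5). With 3 mice against 3, the smallest p that this permutation test can give is 0.1.

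Plasma-like cells numbered 27, 28 and 11 in the IgG1 mice and 17, 7 and 19 in the ipilimumab mice. Their shares of all cells were 0.624%, 0.664% and 0.338% against 0.400%, 0.175% and 0.469%, and overlapped between treatments (exact permutation p = 0.3). The 109 cells were of 3 kinds by their Jchain UMIs. There were 42 cells with a single Jchain UMI, of which 39 lay in B-like clusters. Another 25 cells had 2 to 29 Jchain UMIs, and 16 of these were small barcodes of under 5000 UMIs. The remaining 42 cells had at least 30 Jchain UMIs, a limit set after the values were seen, and held 98.8% of the Jchain UMIs of the 109 cells. A single Jchain UMI does not mark a plasma cell in these libraries, because T-like cells carried one about as often. It was found in 0.794% of B-like cells (exact binomial 95% interval 0.617% to 1.01%), in 0.640% of T-like cells (0.432% to 0.912%) and in 2.37% of alveolar macrophages (1.87% to 2.96%), at median depths of 5596, 8370.0 and 21823.5 UMIs per cell. These intervals cover counting error only.

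The 42 cells with high Jchain carried the plasma cell program. Xbp1, which drives the expansion of the secretory pathway, and Derl3, of protein quality control in the endoplasmic reticulum, were each detected in 40 of the 42. Tnfrsf17, the receptor BCMA for plasma cell survival factors, and Prdm1, the master regulator Blimp-1, were each detected in 37, Irf4 in 36 and Sdc1, the surface marker syndecan-1, in 32. Among B cell genes, Cd79a and Cd79b of the B cell receptor were detected in 41 and 39 of the cells, Ms4a1 in 14, Bank1 in 9 and Pax5, Fcer2a and Cd22 in 5 each. Of the genes listed for plasmacytoid dendritic cells, Siglech, Klk1 and Cd300c were at 0 in all 42, whereas Tcf4 was detected in 41, Bst2 in 40 and Ccr9, a homing receptor that mucosal IgA plasma cells also use, in 21. Of the 42 cells, 35 lay in cluster 15, which was named by plasma cell markers although only 56 of its 297 cells had a Jchain UMI, and 3 lay in B-like clusters, 3 in T-like clusters and 1 in an unnamed one. Their median depth was 35741 UMIs, against medians of 5923 to 7916 UMIs over the cells of a library, and doublets that were not removed could be among them. Counts by mouse were 12, 18 and 2 in the IgG1 group and 3, 2 and 5 in the ipilimumab group.

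Each of these cells used almost 1 heavy chain gene alone. In 40 of the 42 a single constant gene made up at least 90% of the heavy chain UMIs, and in 29 at least 99%, with a lowest share of 88.7%. The cells were chosen by high Jchain, and the J chain links IgM or IgA units, so that IgG cells with little Jchain are not counted. The leading gene was Igha in 33 of the 42 cells, Ighm in 5, Ighg2c in 2, Ighg1 in 1 and Ighg2b in 1, and Ighd or Ighg3 in 0. In the IgG1 mice Igha led in 28 of 32 such cells, Ighm in 2, Ighg2b in 1 and Ighg2c in 1. In the ipilimumab mice Igha led in 5 of 10, Ighm in 3, Ighg1 in 1 and Ighg2c in 1. Cells of 1 mouse are not independent samples, and these counts by group were not tested. They also depend on which barcodes were kept. Igha-led barcodes of at least 5000 UMIs with at least 2 Jchain UMIs numbered 14, 19 and 3 in the IgG1 mice. Of these 12, 17 and 2 were used as cells, against 3, 2 and 1 of 6, 7 and 3 in the ipilimumab mice. Removed doublets held 14.8%, 5.04% and 30.5% of Igha in the IgG1 mice and 44.6%, 32.5% and 50.1% in the ipilimumab mice. Over the 42 cells Jchain ran from 32 to 2543 UMIs. Among them the Ighg2b cell had 2543 UMIs, the Ighg2c cells 351 and 885 and the Ighg1 cell 860. As at least 30 Jchain UMIs were required, this does not show how often IgG cells carry Jchain.

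**Figure D2:**
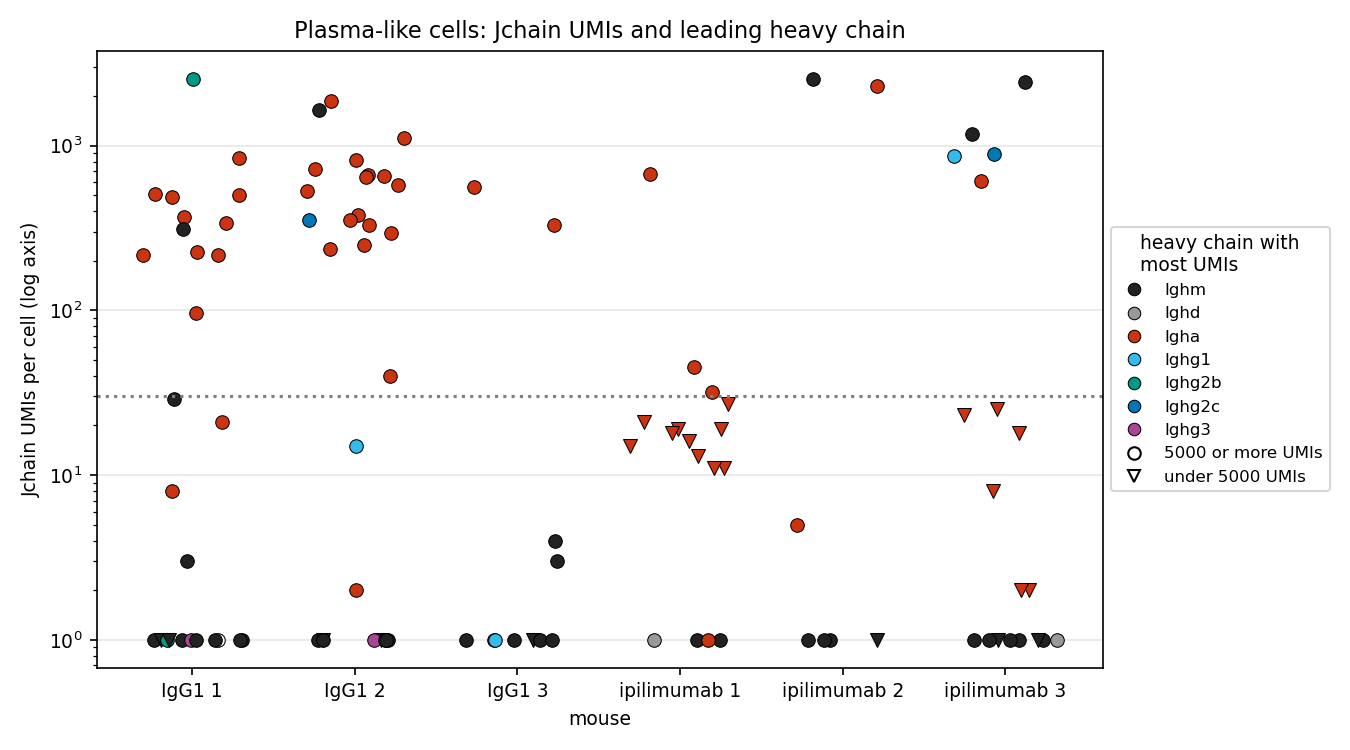
Jchain UMIs of each of the 109 plasma-like cells on a log axis, by mouse, coloured by the heavy chain gene with most UMIs, with triangles for barcodes of under 5000 UMIs and a dotted line at 30 UMIs. Cells above the line number 12, 18, 2, 3, 2 and 5 in the 6 mice, and Igha leads in 10, 16, 2, 3, 1 and 1 of them.

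In several mice 1 cell held most of the UMIs of an isotype among the cells used, from which doublets had been removed. Igha in plasma-like cells was at 14693, 26337 and 12108 CPM in the IgG1 mice and at 14614, 48819 and 5571 CPM in the ipilimumab mice. Ipilimumab 2 was highest and ipilimumab 3 lowest, so that the groups overlapped, with a log2 fold change of 0.86 (SE 0.724, adjusted p = 0.993). In ipilimumab 2 a single cell held 7710 Igha UMIs, which was 96.6% of Igha in the cells of that mouse. The top cell held 20.9% and 14.8% of it in IgG1 1 and IgG1 2, and from 56.4% to 78.5% in the other 3 mice. In those 3, IgG1 3, ipilimumab 1 and ipilimumab 3, the top cells held 1535, 1761 and 1351 Igha UMIs. Removed doublets, which these shares leave out, held 1566, 3977 and 2682 there, and 4590 in ipilimumab 2. The fold change of Igha turned to −0.80 without ipilimumab 2. Ighm was at 4254, 3417 and 3554 CPM in the IgG1 mice and at 810, 42133 and 39530.0 CPM in the ipilimumab mice. It was lowest in ipilimumab 1 and above all IgG1 mice in the other ipilimumab mice, so that the groups overlapped, with a log2 fold change of 3.36 (SE 1.05, unadjusted p = 0.00946, adjusted p = 0.943).

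The high Ighm values rested on 3 cells. In ipilimumab 2 a cell with 6650 Ighm UMIs held 32.4% of the Ighm of all cells of that mouse, and in ipilimumab 3 a cell with 9060 Ighm UMIs held 34.0%, beside another cell with 2080. The cells with 6650 and 9060 UMIs came from different mice whose libraries shared 0 cell barcodes, and in both most light chain variable UMIs came from Iglv1 (69 of 80 and 222 of 236) and all heavy chain variable UMIs from Ighv14-4 (23 of 23 and 29 of 29). Iglv1 is a lambda gene, yet both cells also held the kappa constant Igkc, at 25048 and 22423 UMIs. Iglv1 was common elsewhere as well, in large Igha-led barcodes that had any light chain variable UMI. In IgG1 1 and IgG1 2, 11 of 14 and 15 of 18 of them had an Iglv1 UMI. It made up 134 of 356 and 129 of 648 of their light chain variable UMIs. Without ipilimumab 1, Ighm passed the test in plasma-like cells (log2 fold change 3.94, adjusted p = 5.53e-06). That fit called 6 genes. With all mice and with cells that had a Siglech or Ccr9 UMI left out, the log2 fold change was 1.53 (adjusted p = 0.997). With no filter on low counts the fit called 109 genes, with Ighm, Ighg1 and Ighg2c higher and Ighg2b and Ighg3 lower under ipilimumab.

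The IgG subclasses of plasma-like cells were high in few mice. Ighg2b was at 6439 CPM in IgG1 1, from the cell described above, against 244, 0, 145, 0 and 0 CPM in the other mice in order, with a log2 fold change of −5.56 (SE 1.98, adjusted p = 0.980), which became −1.51 without IgG1 1 and −12.9 without ipilimumab 1. Ighg2c was at 1477 CPM in IgG1 2, where 1 cell held 1179 of 1219 cell UMIs (96.7%), at 11259 CPM in ipilimumab 3, where 1 cell held 3195 UMIs (97.9%), and at 0 in the other 4 mice. Ighg1 was at 6664 CPM in ipilimumab 3, where 1 cell held 1896 UMIs (96.3%), at 31.9 and 96.8 CPM in IgG1 2 and IgG1 3 and at 0 in the rest. Ighg3 ranged from 9.22 to 57.6 CPM in the IgG1 mice and was at 0 in the ipilimumab mice, on 60 UMIs in all. Of these UMIs, 47 came from 1 cell of IgG1 2. A count of 0 allows up to 17.3, 18.9 and 10.5 CPM in the ipilimumab mice, which is above the 9.22 CPM of IgG1 3. These last 3 genes were too low in too many mice to test.

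Ighd was at 84.7, 42.9 and 138 CPM in the IgG1 mice and at 75.2, 145 and 169 CPM in the ipilimumab mice (log2 fold change 0.99, SE 0.499, adjusted p = 0.993). Over 3833 genes tested in plasma-like cells 0% were called, and 0 of the 4 members tested. An unadjusted p under 0.05 was found for 183 genes, and DESeq2 called 6. Jchain, which chose the cells, was at 9650, 14062 and 4162 CPM in the IgG1 mice and at 5344, 30426 and 21308 CPM in the ipilimumab mice. Igha made up 57.6%, 83.3% and 76.1% of heavy chain UMIs in the IgG1 mice and 93.4%, 53.6% and 8.82% in the ipilimumab mice (means 72.4% ± 13.2 and 51.9% ± 42.3, SD, n = 3 each, exact permutation p = 0.6). The share of all switched isotypes was 83.0%, 89.1% and 76.8% against 94.3%, 53.6% and 37.2% (exact permutation p = 0.4). Ipilimumab 1 was the highest of all mice and ipilimumab 3 the lowest by either share.

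Small barcodes with antibody RNA were found in ipilimumab 1 and ipilimumab 3. Barcodes of at least 100 and under 5000 UMIs with at least 2 Jchain UMIs and Igha as the leading heavy chain numbered 0, 1 and 0 in the IgG1 mice and 66, 0 and 39 in the ipilimumab mice, and 11 and 7 of the latter had been used as cells. Large barcodes of at least 5000 UMIs that met the same criteria numbered 14, 19 and 3 against 6, 7 and 3. The limit of 5000 UMIs was set after the values were seen. The small barcodes held Igha at 14858 CPM in ipilimumab 1 and 12200 CPM in ipilimumab 3, and Jchain at 5813 and 4548 CPM. The large barcodes of the same mice held Igha at 22988 and 32935 CPM.

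The light chain variable genes of the small barcodes were few. In ipilimumab 3, Igkv1-110 made up 23 of their 24 light chain variable UMIs and was found in 16 of the 16 barcodes that had any, whereas the 3 large barcodes of that mouse had 0 Igkv1-110 UMIs among 24. In ipilimumab 1 the small barcodes used Iglv1 (15 UMIs), Igkv6-32 (9) and Igkv4-50 (6) and no other, out of 30. Large barcodes of that mouse used 7 light chain variable genes in 65 UMIs, with 6 UMIs from Iglv1, 1 from Igkv4-50 and 0 from Igkv6-32. Over all mice the large barcodes used from 7 to 24 light chain variable genes per mouse. Plasma-like cells of at least 5000 UMIs alone, an alternative added after the values were seen, made up 0.578%, 0.616% and 0.308% of cells in the IgG1 mice and 0.165%, 0.150% and 0.272% in the ipilimumab mice. The groups did not overlap in that share (exact permutation p = 0.1, the smallest possible). The numbers of these cells did overlap, at 25, 26 and 10 in the IgG1 mice and 7, 6 and 11 in the ipilimumab mice. All barcodes of that size with a UMI each of Jchain and Mzb1, removed doublets included, numbered 30, 32 and 12 against 11, 11 and 17. The share with doublets kept was not tested.

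**Figure D3:**
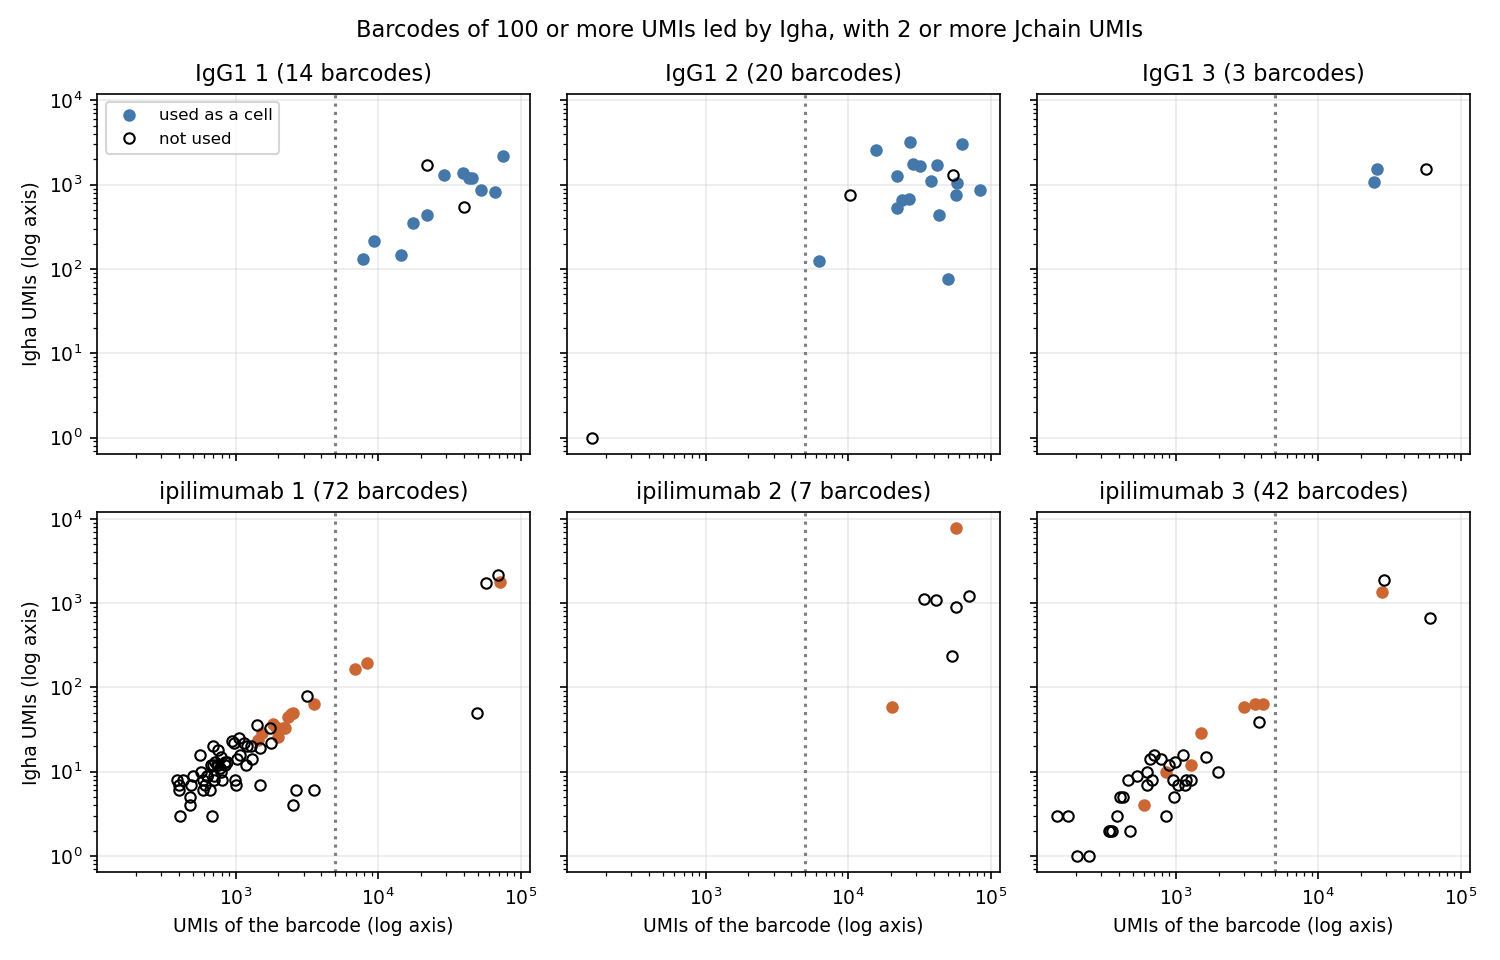
Igha UMIs against all UMIs, both on log axes, for each barcode of at least 100 UMIs with at least 2 Jchain UMIs and Igha as leading heavy chain, by mouse, with a dotted line at 5000 UMIs. A trail of small barcodes, 66 in ipilimumab 1 and 39 in ipilimumab 3, lies left of the line, against 0, 1, 0 and 0 in the other mice.

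Ighm was also read in cells that make no antibody, and in some of them its ratio to Igkc, the kappa light chain constant, lay above that of ambient RNA. The part of free RNA, doublets or transcription in these values was not tested. Classes were named by markers, and each name stands for cells like that type. The ratio of Ighm to Igkc UMIs was 0.280 to 0.405 over the 6 mice in B-like cells and 0.181 to 0.387 in ambient RNA. It was alike in alveolar macrophages (0.200 to 0.442), endothelial cells (0.154 to 0.476) and fibroblasts (0.286 to 0.452). In T-like cells it was 1.75 to 4.56, in neutrophils 1.31 to 2.74, in NK cells 0.925 to 1.90 and in dendritic cells 1.32 to 6.5, so that in these 4 classes every mouse lay above every mouse of the classes named before. The dendritic ratios rested on only 65 Igkc UMIs over the 6 mice, against 1276 in T-like cells. C1q macrophages ranged from 0.267 to 28.0, on 123 Igkc UMIs. AT2-like cells ranged from 0 to 2 on 141 Igkc UMIs and ciliated cells from 0 to 0.667 on 52, each with values from 5 mice. Ighd made up 1.90% to 7.53% of Ighm and Ighd together in T-like cells, 1.89% to 6.74% in neutrophils and 3.23% to 10.6% in NK cells, against 19.96% to 24.96% in B-like cells and 19.2% to 24.3% in ambient RNA. In dendritic cells it ranged from 0% to 17.6%, in alveolar macrophages from 8.0% to 27.2%, in endothelial cells from 9.09% to 33.3% and in fibroblasts from 0% to 33.3%. Plasmacytoid dendritic-like cells, only 30 in all and with values from 4 mice, had Ighm at 894 CPM and a ratio from 1.099 to 70. That ratio rested on 129 Igkc UMIs. A Jchain UMI was found in 0 of the 30, which allows a share of cells with a UMI of up to 10.0%.

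**Figure D4:**
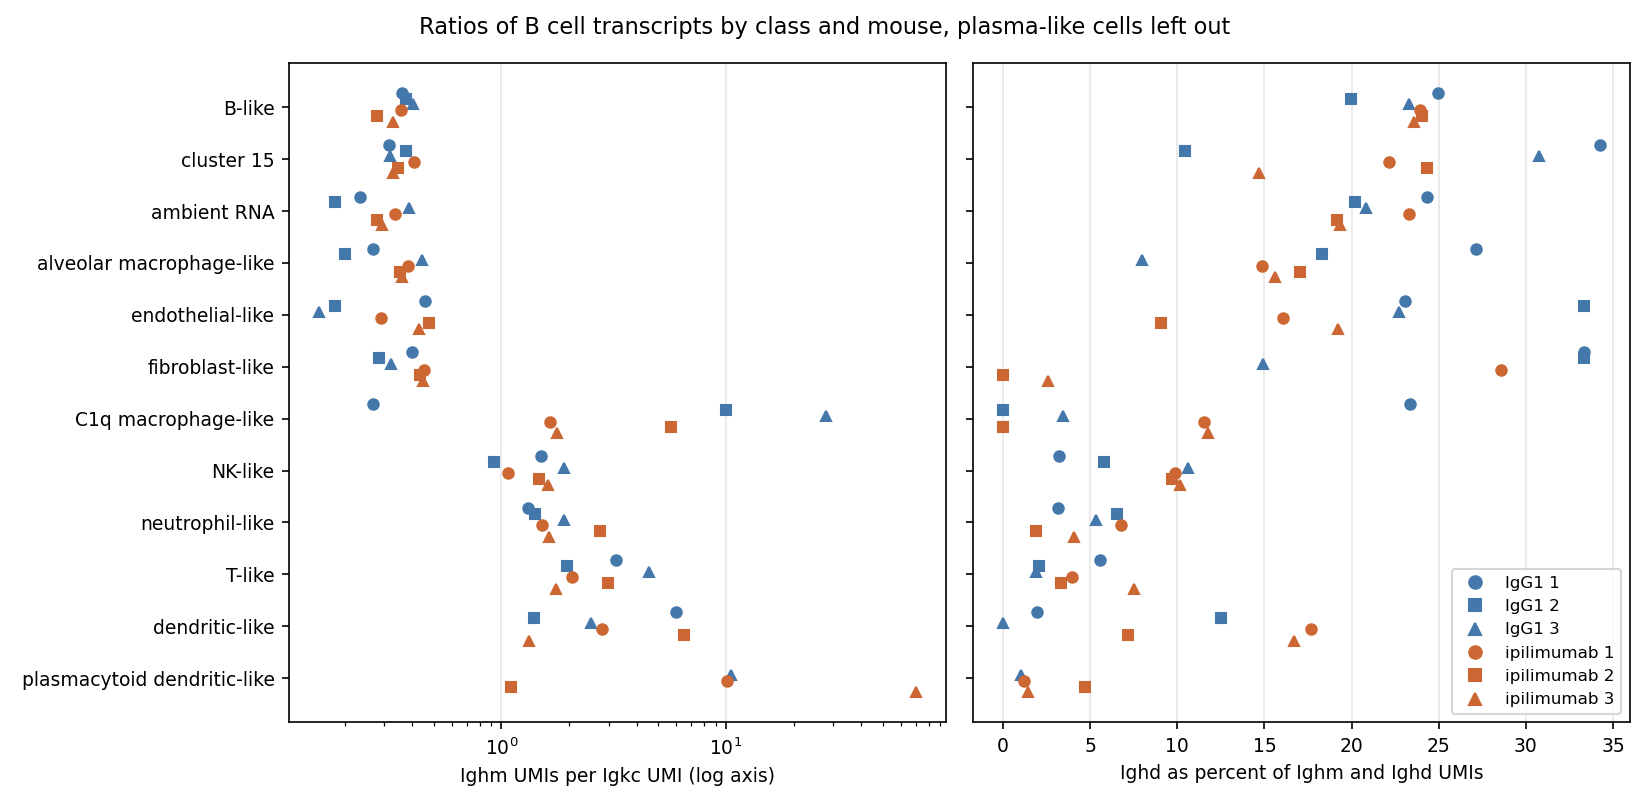
Ratio of Ighm to Igkc UMIs and Ighd as a percent of Ighm and Ighd UMIs, by cell class with plasma-like cells left out, with 1 point per mouse, the ratio on a log axis and ambient RNA beside the classes. T-like cells, neutrophils, NK cells and dendritic cells lie above ambient RNA in the ratio and below it in the Ighd percent, in all 6 mice.

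An Ighm UMI was found in 98.9% of B-like cells, 35.1% of T-like cells, 19.9% of neutrophils and 15.4% of NK cells, against 11.9% of alveolar macrophages. The depths differ, and after thinning each cell to 1000 UMIs the shares were 77.8%, 6.05%, 5.89%, 2.80% and 0.655%. Only cells with at least 1000 UMIs entered that step, which kept 8470 of 8515 B-like and 4666 of 4685 T-like cells. The thinned share was 10.1% in AT2-like cells (133 of 208 kept), 10.0% in C1q macrophages and 4.63% in dendritic cells. In fibroblasts it was 4.23%, in endothelial cells 2.78% and in ciliated cells 2.02%. These shares pool the mice, and ipilimumab 1 gave 155 of the 208 AT2-like cells and 236 of the 611 fibroblasts. Pooled in this way, the thinned share did not set T-like cells, neutrophils and NK cells apart from these classes. Other cells also include 244 cells of cluster 15 that were not plasma-like, with Ighm at 236 CPM. Summed over all other cells, Ighm was at 48.8, 31.7 and 59.1 CPM in the IgG1 mice and at 62.2, 38.8 and 37.3 CPM in the ipilimumab mice. The groups overlapped (log2 fold change −0.07, SE 0.242, adjusted p = 0.993). Igha was at 5.72, 7.71 and 2.52 CPM against 5.32, 4.0003 and 2.28 CPM, and Jchain at 1.07, 2.36 and 0.420 CPM against 0.953, 0.701 and 1.35 CPM, with overlap in both. The Jchain of other cells rested on IgG1 2, without which its log2 fold change turned from −0.46 to 0.41. Cells with a UMI each of Jchain and Mzb1 had been taken out of other cells. The level and test of Jchain there thus depend in part on that choice. With cluster 15 left out, the log2 fold changes were −0.76 for Igha, against −0.55, and −0.73 for Jchain. This alternative was added after the values were seen. Of 16785 genes tested in other cells 0% were called, and 0 of the 4 members tested, while 807 genes had an unadjusted p under 0.05 and DESeq2 called 33.

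Ambient RNA carried all 8 genes, but Ighg2b was at 0 in that of ipilimumab 2 and Ighg2c in that of ipilimumab 1. Igha was at 883, 964 and 332 CPM in the ambient RNA of the IgG1 mice and at 359.9, 482 and 123 CPM in that of the ipilimumab mice. IgG1 3 lay among the ipilimumab mice, and the log2 fold change was −1.16 (SE 0.501, adjusted p = 0.995). In summed RNA, fewer cells of a type and less RNA per cell cannot be told apart. Jchain was at 206, 252 and 67.1 CPM against 70.2, 110.3 and 120.5 CPM (log2 fold change −0.79, SE 0.425, adjusted p = 0.995). Ighm was at 902, 541 and 977 CPM against 903, 529 and 690.0 CPM, and Ighd at 289.8, 137 and 257 CPM against 275, 125 and 165 CPM, with overlap in both. Of 12521 genes tested 0% were called, and 0 of the 7 members tested, while 505 genes had an unadjusted p under 0.05 and DESeq2 called 6. Ambient Igha passed the test in the fits with no filter on low counts (adjusted p = 0.0251), and so did ambient Ighg1 (adjusted p = 0.00204).

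The IgG genes of ambient RNA were high in single mice. Ighg2b stood at 168 CPM in IgG1 1, the mouse of the Ighg2b cell, and Ighg1 and Ighg2c at 165 and 125 CPM in ipilimumab 3, the mouse of the Ighg1 cell and of an Ighg2c cell. In 2 cases most UMIs of an isotype were ambient. Ighg2c was at 52.0 CPM in the ambient RNA of IgG1 1, where barcodes of under 100 UMIs held 141 of the 143 Ighg2c UMIs of the library (98.6%) and plasma-like cells held 0. In the second case, 104 of the 154 Ighg2b UMIs of ipilimumab 3 (67.5%) were ambient, at 34.5 CPM, and its plasma-like cells held 0. Both genes are among those whose reads can be shared with a relative, and the part of sharing in these values was not tested. The cell of IgG1 1 with 4452 Ighg2b UMIs held 0 Ighg2c UMIs. The cell of ipilimumab 3 with 3195 Ighg2c UMIs held 0 Ighg2b UMIs.

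Within each mouse, the share of Igha among heavy chain UMIs was higher in ambient RNA than over all cells used. It was 38.4%, 56.4% and 21.1% in the ambient RNA of the IgG1 mice against 21.8%, 48.1% and 9.83% in their cells, and 23.3%, 42.0% and 9.45% in that of the ipilimumab mice against 9.37%, 24.5% and 4.51%. The difference was 12.1 percentage points ± 4.89 (SD, n = 6), ranged from 4.94 to 17.5 and was positive in 6 of 6 mice (exact two-sided sign-flip permutation p = 0.03125, the smallest possible). For all switched isotypes it was 14.2 points ± 3.70 (SD, n = 6), from 8.39 to 18.3, again in 6 of 6 mice (exact p = 0.03125). The cells removed as doublets were rich in Igha, and with them kept the Igha difference was 7.31 points and negative in ipilimumab 3, at −0.71 (exact permutation p = 0.0625). Against plasma-like cells alone, ambient RNA had the lower switched share in all 6 mice, by 33.8 points on average. Between treatments the ambient shares overlapped, at 38.6% ± 17.6 and 24.9% ± 16.3 for Igha (SD, n = 3 each, exact permutation p = 0.5) and at 43.4% ± 19.8 and 33.7% ± 9.65 for all switched isotypes (exact permutation p = 0.5).

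**Figure D5:**
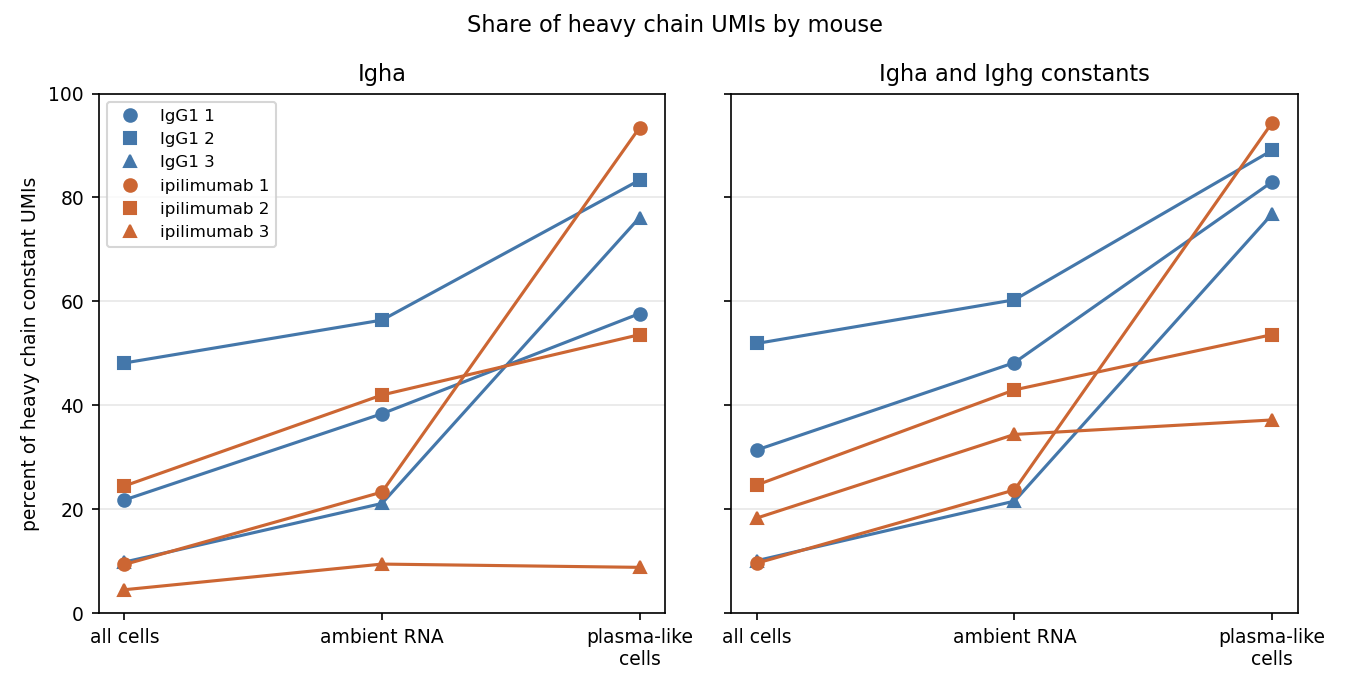
Share of Igha and of all switched isotypes among the heavy chain UMIs of each mouse, in percent, over all cells used, ambient RNA and plasma-like cells, with lines joining the values of 1 mouse. The ambient share lies above that of all cells in every mouse, by 4.94 to 17.5 points for Igha.

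The partners of the heavy chains were examined through 6 fixed gene lists, and no gene of any list was called in B-like cells, plasma-like cells, other cells or ambient RNA. The light chain constants (4 of 4 tested in each) had a median log2 fold change of −0.11 in B-like and 0.25 in plasma-like cells. It was 0.78 in other cells and −0.35 in ambient RNA. The medians of all genes were 0.00, 0.01, −0.01 and 0.01 in the same order. Igkc, the kappa constant, was at 6656, 6723 and 4829.7 CPM in B-like cells of the IgG1 mice and at 5540.5, 6095 and 6090.2 CPM in those of the ipilimumab mice. B cell receptor and identity genes (12 of 12 tested in B-like cells) had a median of −0.09, with Cd74, the invariant chain of antigen presentation, at 0.14 (SE 0.1099) and Bank1, an adaptor of the B cell receptor, at −0.09 (SE 0.121). The medians of the B cell receptor and identity list were 0.23 in other cells and −0.32 in ambient RNA. Genes of activation and class switching had a median of −0.10 in B-like cells (10 of 12 tested).

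Genes of plasma cell differentiation and secretion had a median of −0.05 in B-like cells (12 of 14 tested) and of 0.30 in plasma-like cells (13 of 14 tested, without Mzb1). Hsp90b1, a chaperone of the endoplasmic reticulum, was at 3693, 3657 and 986 CPM in plasma-like cells of the IgG1 mice and at 3614, 2325.0 and 2352 CPM in those of the ipilimumab mice (log2 fold change 0.22, SE 0.428). Antibody receptors and transport genes had a median of 0.04 in B-like cells (5 of 8 tested) and −0.07 in other cells (8 of 8 tested). Factors that guide B and plasma cells had a median of −0.25 on 2 of 9 tested in B-like cells and 0.08 on 8 of 9 in other cells. Ccr10, a homing receptor of mucosal IgA plasma cells, was at 99.02, 109 and 32.3 CPM in plasma-like cells of the IgG1 mice and at 46.3, 169.7 and 21.1 CPM in those of the ipilimumab mice, with overlap.

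Likeness to the other genes was measured as Pearson's r of log2(CPM + 10) over 13 cell classes, each summed over all mice, among genes with at least 100 UMIs. The classes share the same libraries and the values are a description. Jchain was most like variable genes, namely Ighv3-6 (r = 0.979), Igkv12-44 (r = 0.978), Ighv1-9 (r = 0.972), Igkv1-122 (r = 0.972) and Igkv1-135 (r = 0.968). Igha was most like Igkv1-122 (r = 0.980), Igkv12-44 (r = 0.960), Ighv3-6 (r = 0.956), Ighv1-9 (r = 0.954) and Ccr10 (r = 0.9504). Ighm, which B-like cells share with plasma-like ones, was instead most like Gm30211 (r = 0.939), Mzb1 (r = 0.935), the lambda constant Iglc2 (r = 0.931), Gm34215 (r = 0.931) and Eaf2 (r = 0.918).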

How the data were processed

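The authors digested the right lung of each mouse, made 1 library per mouse with the 10x Genomics 3′ chemistry and ran Cell Ranger on the mouse build mm10. The deposited counts are UMIs per gene and barcode for all barcodes, empty ones included. The labels name Cell Ranger 7.0.0 and the file headers and the methods name other versions, and whether intron reads were counted is not given in the sources used here. Reads shared by near-identical IgG genes could be dropped or split.

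From these counts, a barcode was called a cell when it had at least 10% of the UMIs found at percentile 99 among the top 5000 barcodes, or when, at 500 UMIs or more, its profile differed from ambient RNA at a false discovery rate of 0.01. Cells needed 200 genes and at most 10% mitochondrial UMIs. Doublets were removed by a score against simulated pairs, at a rate of 0.8% per 1000 cells. Clusters came from 2000 variable genes without immunoglobulin genes, 10 principal components and 20 neighbours (leidenalg 0.10.2, resolution 0.8). UMIs were summed per mouse and tested with the quasi-likelihood test of edgeR 4.0.16 (R 4.3.3) after filterByExpr with TMM factors, with Benjamini-Hochberg adjustment over all genes tested. Calls needed an adjusted p under 0.05 and a log2 fold change beyond 0.3. The step was tested on simulated data. DESeq2 1.42.0, other filters, library sizes, cell calls, gates and each mouse left out were alternatives. Shares were compared by exact permutation over the 20 splits of 6 mice. Intervals cover counting error only.

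The 8 genes and the gene lists were chosen with earlier results of these data known. All 8 were named in every population. Of each list the text could name called genes or the 2 with the highest mean. Genes named outside this rule (Igkc in ratios, variable genes of single cells, Ccr10 and marker genes) were chosen after their values were seen.

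Whether replicate numbers pair the samples was not settled. In no population was the correlation of deviations between mice of the same number above 0.1 for every pair. Deviations were taken from the group mean and so are tied to each other within a group. This rule therefore cannot show that the samples were unpaired.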

Additional observations from a re-analysis of the deposited data

Results flagged for a closer look

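Barcodes that were neither used as cells nor removed as doublets held plasma cell RNA, and were many in 2 mice. Those of at least 100 UMIs with at least 1 UMI each of Jchain and Mzb1 numbered 66 in ipilimumab 1 and 34 in ipilimumab 3, against 1, 1 and 1 in the IgG1 mice and 0 in ipilimumab 2. They stood out because they lie outside the cells compared and above the level in the control mice. The 66 barcodes held 716 Igha and 241 Jchain UMIs, and 60 of them had at least 500 UMIs. The 34 barcodes held 285 Igha and 83 Jchain UMIs, and 18 of them had at least 500 UMIs. In IgG1 2 the 1 barcode held more than the 66 together, with 746 Igha UMIs, but fewer Jchain UMIs, 109, and had 10251 UMIs in all, so that it passed the calling threshold and was left out at a later filter. Ipilimumab 1 also had 22056 barcodes of at least 100 UMIs, and barcodes of at least 100 and under 500 UMIs held 9.31% and larger ones not used as cells 10.7% of its Ighm UMIs, whereas ipilimumab 3 had 5891. The part of that number in these counts was not tested.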

How the results depend on the processing

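Over all results, 485 alternative values were computed, of which 416 kept their direction and their side of the threshold. The counts of called genes, 0 in each population, became 7 in B-like cells, 6 in plasma-like cells, 33 in other cells and 6 in ambient RNA with DESeq2, none of them one of the 8 genes. With no filter on low counts they became 143, 109, 0 and 58, of which 4, 5, 0 and 2 were among the 8 genes. In B-like cells 2 genes were called with doublets kept, and leaving out 1 mouse gave 0 to 2 calls, 2 without IgG1 2 and 1 without ipilimumab 3. In plasma-like cells 1 gene was called with Siglech- or Ccr9-positive cells left out, and leaving out 1 mouse gave 0 to 6 calls, 6 without ipilimumab 1, and 0 to 1 of the 8 genes.

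With the replicate number as a block, the calls were 1 in B-like cells, 1 in plasma-like cells, 0 in other cells and 5 in ambient RNA, and among the 8 genes 1 in plasma-like cells (Ighg2b) and 1 in ambient RNA (Igha). Whether the numbers pair the samples is not known. Correlations between same-numbered mice were 0.0806, 0.0049 and −0.172 in B-like cells, and 0.0261, −0.0867 and 0.0535 in plasma-like cells. They were 0.0738, 0.352 and −0.150 in other cells and 0.127, 0.269 and −0.0723 in ambient RNA.

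The Igha share of plasma-like cells, 20.4 points lower under ipilimumab, was 2.14 points higher with Siglech- or Ccr9-positive cells left out, and ranged from −41.2 to 1.14 with 1 mouse left out. The Igha excess of ambient RNA was 7.31 points with doublets kept, −30.4 points against plasma-like cells alone, and 10.999 to 13.5 with 1 mouse left out, and that of switched isotypes −33.8 points against plasma-like cells and 13.4 to 15.3 with 1 mouse left out. With 5 mice the smallest p is 0.0625.

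Log2 fold changes of 7 of the pairs of gene and population turned sign, chiefly with 1 mouse left out. In B-like cells leaving out 1 mouse gave −2.78 to 1.85 for Igha, −0.72 to 0.68 for Ighg1 and −0.0538 to 0.0679 for Ighd. With B cells taken by Cd79a and Ms4a1 UMIs, Ighg1 became 0.36 and Ighd −0.0460, and without plasma-like cells they became 0.52 and −0.0037. Ighd became −0.0216 with cells called by UMI total alone and −0.0247 with doublets kept. In plasma-like cells Igha ran from −0.80 to 1.34, turning without ipilimumab 2, and became −0.52 when at least 2 UMIs each of Jchain and Mzb1 were asked, which left 4 mice in the fit. In other cells Jchain ran from −0.87 to 0.41, turning without IgG1 2, and Ighm from −0.29 to 0.11. In ambient RNA Ighg2c ran from −6.05, without ipilimumab 3, to 1.91, and became −0.75 with the replicate block. The causes were not tested. In simulated data the plasma-like step recovered 11.6% of genes with a log2 fold change of 1 and 84.8% of those with 2. The B-like step recovered 85.3% and 99%. These shares pool all changed genes that were tested. Recovery of genes as variable between mice as Igha, Jchain and Ighg2b was not tested separately. In B-like cells the SEs of these 3 genes were 1.06, 1.20 and 1.55, against 0.0790 for Ighm.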
